A study of Mus musculus with 9 samples.

Results

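The cholesterol and fatty acid genes *Scd2*, *Abca1*, *Abcg1* and *Mylip* were followed in mouse T cells kept in 3 media. They are 4 of the 2889 genes in the deposited table of sample values, taken by symbol. They had been chosen by their measured values in these samples, because they rise or hold in stromal medium and fall in adipocyte medium. Their differences between media are therefore given as a description, with no test. All 9 samples were T cells carrying CD3 from spleens of wild-type C57BL/6 mice, purified by negative selection, in which other cell types are pulled out. Each of 3 mice gave 1 sample in unconditioned RPMI, 1 in medium conditioned by adipocytes and 1 in medium conditioned by stromal cells, after 4 h. No genetic change separated the groups. The labels do not say where the adipocytes and stromal cells came from. The T cells were polyclonal, that is, not of 1 clone or antigen receptor.

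Liver X receptors (LXRs) are nuclear receptors that sense oxysterols, oxidised forms of cholesterol, and pair with retinoid X receptors on DNA. When sterols are plentiful, LXRs switch on genes that export cholesterol and limit its uptake. The opposite arm is run by SREBP transcription factors, which raise cholesterol synthesis and uptake when sterols are scarce. In T cells the sterol supply is known to bear on growth after activation. ABCA1 and ABCG1 are membrane transporters that pass cholesterol to lipoproteins outside the cell. MYLIP, also called IDOL, is a ubiquitin ligase that lowers the uptake of lipoproteins. SCD2 is a stearoyl-CoA desaturase, an enzyme that puts a double bond into saturated fatty acids. Desaturase genes respond both to LXR and to SREBP, and polyunsaturated fatty acids repress them.

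The sample table holds normalized counts, read counts divided by 1 size factor per sample, and it lists genes that the authors had called changed in at least 1 conditioned medium. Below, all genes means these listed genes. They were called changed in these same samples, so for many of them passing a test here was fixed by that choice. The adjusted p-values below are therefore no independent evidence of change. Over the listed genes, 6522742 to 13758643 reads per sample were recovered from the value steps. The 100 most abundant genes took 35.1% to 35.3% of the values in unconditioned, 36.3% to 37.6% in stromal and 42.1% to 44.1% in adipocyte medium. The median listed gene was 1.03 lower on the log2 scale in adipocyte than in unconditioned medium, 0.17 lower in stromal than in unconditioned medium and 0.60 lower in adipocyte than in stromal medium. Rescaling by the median of ratios, taken over the listed genes, moves the median log2 difference up by 0.93, 0.36 and 0.57 in these 3 comparisons. That scaling takes most genes to be unchanged, but the listed genes were chosen as changed, so it may take away real differences. Both directions of all 4 genes held under that scaling.

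*Scd2* (ENSMUSG00000025203) had the widest range of the 4. Its normalized counts in mice 1, 2 and 3 were 3589, 2995 and 2857 in unconditioned medium, 3147 ± 389 (SD, n = 3). They were 13548, 11416 and 13661 in stromal medium, 12875 ± 1265. In adipocyte medium they were 401, 242 and 170.0, 271 ± 118. The groups did not overlap, and each stromal sample stood above every unconditioned one by a wide margin. Within a mouse, stromal medium was higher by 1.92, 1.93 and 2.26 on the log2 scale, a mean of 2.03 ± 0.19 (SD, n = 3 mice), or 4.09-fold. Adipocyte medium differed from unconditioned medium by -3.16, -3.62 and -4.06 in the same mice, a mean of -3.61 ± 0.45, which is 11.6-fold lower. Mouse 1, the highest in both unconditioned and adipocyte medium, showed the smaller fall and mouse 3 the larger. The adipocyte values rest on 279, 269 and 174 recovered reads, so counting error is a small part of their spread. That spread was wide all the same: the coefficient of variation was 43.6% in adipocyte medium, where the 90th percentile of 2501 genes with a mean of at least 100 was 27.2%. It was 12.4% in unconditioned and 9.82% in stromal medium. Among the 2868 genes with a mean of at least 1, the log2 difference of *Scd2* between adipocyte and stromal medium, -5.65, was the fourth lowest. The authors' deposited tables list *Scd2* at -3.59 with a standard error of 0.26 in adipocyte medium and at 2.05 with a standard error of 0.25 in stromal medium, both against unconditioned medium.

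*Abca1* (ENSMUSG00000015243), the exporter that loads lipid-poor apolipoprotein A-I, started from a similar normalized count. It measured 3785, 2763 and 2687 in unconditioned medium, 3078 ± 613 (SD, n = 3). In stromal medium the values were 5331, 4492 and 6249, 5357 ± 879, and in adipocyte medium 867, 724 and 814, 802 ± 72.1. No stromal value lay below an unconditioned one, but the gap between the groups was narrow, from 3785 to 4492. The stromal difference within mice was uneven, with log2 values of 0.49, 0.70 and 1.22, a mean of 0.80 ± 0.37 or 1.74-fold. The adipocyte difference was larger and tighter, at -2.12, -1.93 and -1.72, a mean of -1.93 ± 0.20 or 3.84-fold lower. Mouse 3 had the largest stromal difference and the smallest adipocyte difference of the 3 mice. The authors' deposited table gives -1.93 with a standard error of 0.12 for adipocyte medium, and their stromal table has no row for *Abca1*.

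*Abcg1* (ENSMUSG00000024030), whose product passes cholesterol to HDL particles, varied little between mice. Its normalized counts were 4896, 4875 and 4571 in unconditioned medium, 4781 ± 182 (SD, n = 3). They were 9721, 9834 and 10805 in stromal medium, 10119.9 ± 596, and 1604, 1830 and 1519 in adipocyte medium, 1651 ± 161. The 3 groups were well apart, with the lowest stromal sample at 9721 and the highest adipocyte sample at 1830. Within mice the stromal difference was 0.99, 1.01 and 1.24 on the log2 scale, a mean of 1.08 ± 0.14 or 2.12-fold. The adipocyte difference was -1.61, -1.41 and -1.59, a mean of -1.54 ± 0.11 or 2.90-fold lower. The authors' deposited tables list it in both media, at 1.08 for stromal and -1.53 for adipocyte medium, each with a standard error of 0.09.

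*Mylip* (ENSMUSG00000038175) had the smallest stromal difference. Its normalized counts were 6197, 6011 and 6032 in unconditioned medium, 6080.1 ± 102 (SD, n = 3), a coefficient of variation of 1.68% where the median gene had 6.26%. They were 9120.4, 9389 and 8777 in stromal medium, 9096 ± 307, and 1724, 2065 and 1575 in adipocyte medium, 1788 ± 251. The 3 media again did not overlap. The stromal difference was 0.56, 0.64 and 0.54 on the log2 scale within mice, a mean of 0.58 ± 0.06. The adipocyte difference was -1.84, -1.54 and -1.94, a mean of -1.77 ± 0.21 or 3.40-fold lower. The stromal step of *Mylip* was thus small and even over mice, whereas that of *Abca1* was larger and uneven. The authors' deposited table gives -1.77 with a standard error of 0.09 in adipocyte medium. Their stromal table, whose p-value tests a change beyond 1.5-fold, has no row for *Mylip*.

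**Figure D1:**
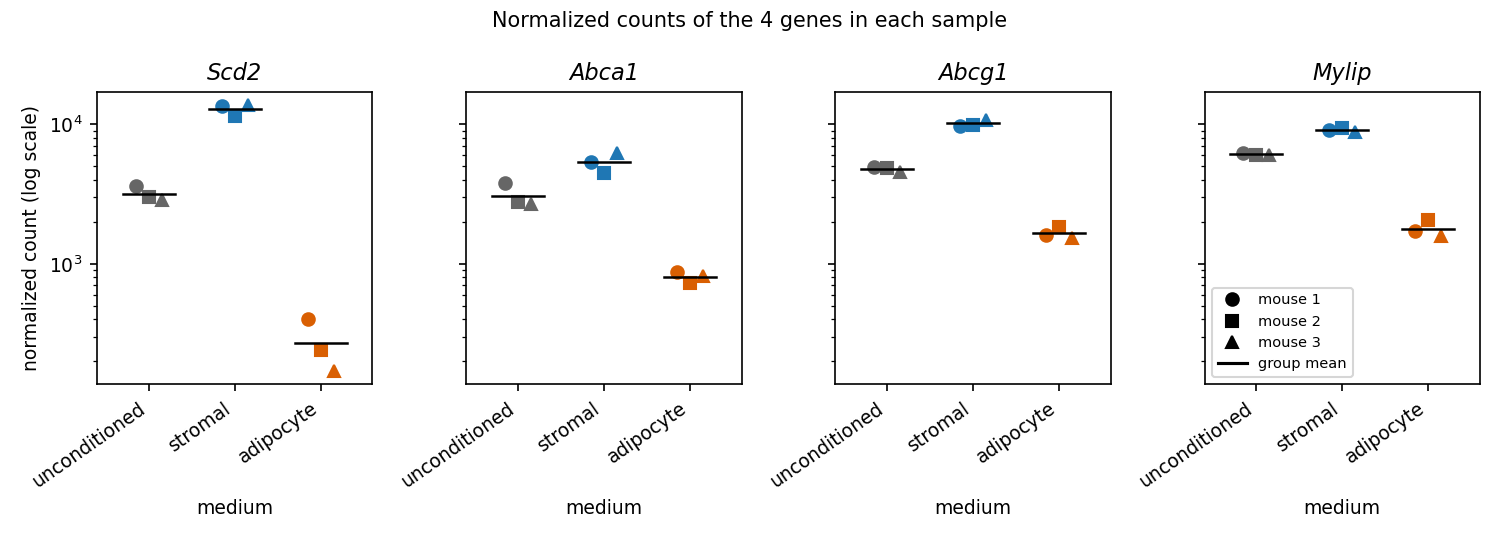
Normalized counts on a log axis for each gene (panels) in unconditioned, stromal and adipocyte medium, with 1 symbol per mouse and a bar at the mean of 3 samples. The order is stromal, unconditioned, adipocyte in each panel, and *Scd2* spans from 170.0 to 13661.

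**Figure D2:**
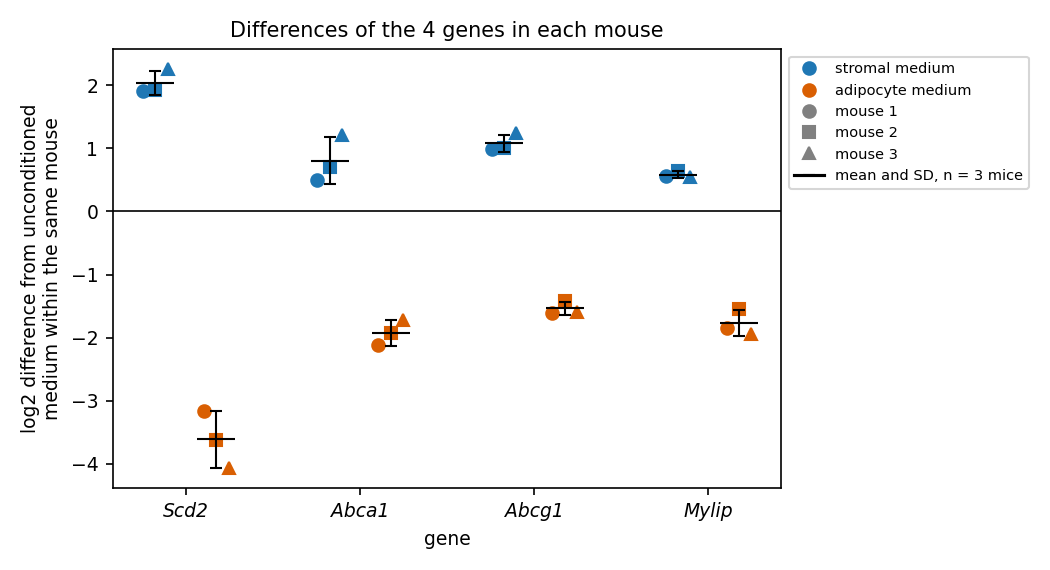
Log2 difference from unconditioned medium within the same mouse, with 1 symbol per mouse and the mean and SD of 3 mice in black. *Scd2* lies farthest from 0 in both media, and the 3 mice spread most for *Scd2* in adipocyte medium (SD 0.45) and for *Abca1* in stromal medium (SD 0.37).

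Since the genes were chosen by this pattern, the order of the media is no finding. It can be set against the rest of the table. All adipocyte samples lay below all unconditioned samples for 63.4% of the 2868 genes, so that order is common here. All stromal samples lay above all unconditioned samples for 25.1%. Both orders together were met by 139 genes, 4.85%. Of those 139 genes 115 are in the authors' cluster 2, as are *Abca1* and *Mylip*, and 24 are in cluster 4, as are *Scd2* and *Abcg1*. Cluster 4 is much the smaller, with 132 genes against 1611.

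Levels can be compared between genes only per length. Per kilobase of exon, *Mylip* was the most abundant in every medium, at 1881 ± 31.6 normalized counts in unconditioned, 2813 ± 94.9 in stromal and 553 ± 77.8 in adipocyte medium (SD, n = 3). *Abca1* was at 297 ± 59.2, 517 ± 84.8 and 77.4 ± 6.96 per kilobase in the same order. *Abcg1* was at 655 ± 25.0, 1387 ± 81.7 and 226 ± 22.0, and *Scd2* at 576 ± 71.2, 2356 ± 231 and 49.6 ± 21.7. *Scd2* therefore changed its place in the order: near *Abcg1* in unconditioned medium, above it in stromal medium, and below both exporters on average in adipocyte medium. *Scd2* and *Abcg1* in unconditioned medium, and *Scd2* and *Abca1* in adipocyte medium, were neighbours whose means differed by less than the sum of their SDs.

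Ratios within a sample do not depend on the size factor, and they show how unequal the 4 changes were. *Scd2* over *Abca1* was 1.03 ± 0.07 in unconditioned medium, 2.42 ± 0.21 in stromal medium and 0.335 ± 0.127 in adipocyte medium (SD, n = 3). *Scd2* over *Abcg1* went from 0.658 ± 0.066 to 1.27 ± 0.12 and 0.165 ± 0.075. The 2 exporters kept closer to each other: *Abca1* over *Abcg1* was 0.643 ± 0.113, 0.528 ± 0.063 and 0.491 ± 0.082 in the same order. These overlap within their SDs, but within each mouse the ratio was lower in both conditioned media than in unconditioned medium, from 0.773 to 0.548 and 0.541 in mouse 1, from 0.567 to 0.457 and 0.396 in mouse 2, and from 0.588 to 0.578 and 0.536 in mouse 3. After the mean of each medium was taken out, *Abcg1* and *Mylip* varied together over the 9 samples (Pearson's r = 0.70), *Scd2* and *Abca1* less so (r = 0.45), and *Abca1* and *Mylip* did not (r = -0.32). These are 9 points from 3 mice that share size factors, and they are given as a description.

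The genes whose pattern was most like each of the 4 were found by Pearson's r of log2(value + 1) over the 9 samples, among 2799 named genes. For *Scd2* they were *Tyms* (r = 0.996), *Glb1* and *Tnfsf10* (both 0.992), *Galk1* (0.992) and *Glipr2* (0.990). For *Abca1* they were *Epsti1* (0.991), *Wee1*, *Tnfsf10*, *Tyms* and *Nit2*, and for *Abcg1* they were *Pik3r2* (0.994), *Tnfsf10*, *Glb1*, *Galk1* and *Cdk4*. For *Mylip* they were *Abhd17a* (0.997), *Pck2*, *Ttll12*, *Slx1b* and *Atp23*. None of these is on the sterol and fatty acid lists below. Their steps were smaller than that of *Scd2*: *Tyms*, a thymidylate synthase gene, averaged 447, 636 and 207 in unconditioned, stromal and adipocyte medium. With 3 media of distinct level, such an r mostly reflects the order and spacing of 3 group means.

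Promoter sequence was at hand for *Abca1* and *Mylip*, and that of *Hmgcs1*, a gene of the SREBP arm, is shown beside them. They are the 250 bases before the annotated start, from RefSeq on GRCm38.p6, 5′ to 3′ on the gene's strand. The *Abca1* promoter (chr4:53159896-53160145, minus strand) is shown with the closest match to an LXR response element in capitals, the *Mylip* promoter (chr13:45389492-45389741, plus strand) with its CCAAT boxes in capitals, and the *Hmgcs1* promoter (chr13:119690101-119690350, plus strand) with its sterol regulatory element core in capitals.
Abca1: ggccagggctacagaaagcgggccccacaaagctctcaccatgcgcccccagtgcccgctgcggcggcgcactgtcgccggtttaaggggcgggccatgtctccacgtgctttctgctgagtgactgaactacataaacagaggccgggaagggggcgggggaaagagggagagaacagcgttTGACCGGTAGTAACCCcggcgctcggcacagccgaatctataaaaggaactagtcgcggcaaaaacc
Mylip: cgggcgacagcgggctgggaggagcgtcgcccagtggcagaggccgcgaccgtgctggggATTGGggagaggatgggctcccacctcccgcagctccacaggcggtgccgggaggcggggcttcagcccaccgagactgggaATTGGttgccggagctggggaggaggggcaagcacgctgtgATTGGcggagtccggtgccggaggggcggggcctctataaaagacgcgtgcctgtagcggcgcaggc
Hmgcs1: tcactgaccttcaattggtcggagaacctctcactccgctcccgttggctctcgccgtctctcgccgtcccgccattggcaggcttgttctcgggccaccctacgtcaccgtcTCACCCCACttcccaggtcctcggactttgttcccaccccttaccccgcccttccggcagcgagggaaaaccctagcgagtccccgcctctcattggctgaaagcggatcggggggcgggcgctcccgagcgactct
An LXR element is a direct repeat, AGGTCA, any 4 bases, AGGTCA, searched on both strands. The *Abca1* match lies 67 to 52 bases before the start, on the opposite strand, where it reads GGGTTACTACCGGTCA, with 3 mismatches. At that limit 18.5% of 32851 mouse promoters of this length hold a match, against 2.57% at 2 mismatches and 0.24% at 1, so a match of this quality is common. Sequence farther from the start was not searched for any of these genes. In its 250 bases *Mylip* had no match closer than 6 mismatches. It held 3 CCAAT boxes, read as ATTGG on the gene's strand, 190, 108 and 67 bases before the start. At least 1 is held by 33.8% of promoters, and 3 or more by 2.79%. *Hmgcs1* held the core TCACCCCAC 137 to 129 bases before its start, which 0.496% of promoters hold. It also held a direct repeat match with 3 mismatches, at positions -158 to -143 from the start, and 3 CCAAT boxes, at -237, -176 and -45. So the count of mismatches and of CCAAT boxes does not set *Abca1* and *Mylip* apart from it. These matches describe the letters of the windows, and binding was not measured. A count of mismatches to the repeat does not tell whether the *Abca1* stretch works as an LXR element.

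The LXR list held the receptors, their partners and genes listed as targets, other than the 4 genes. Whether each is an LXR target in these mouse T cells was not tested. Of 42 genes 11 are in the sample table and 10 had a mean of at least 1. Against unconditioned medium, adipocyte medium had 7 lower and 3 higher by limma with Benjamini-Hochberg adjustment over all 2868 genes, with a median log2 difference of -1.09. The median of all genes was -1.03, with 63.4% called lower and 33.8% called higher. In stromal medium 4 were lower, 1 was higher and 5 did not pass the test, with a median of -0.40 against -0.17 for all genes, of which 36.6% were called lower and 21.1% higher. Both shares are near the background. Rescaled by the median of ratios, 4 rather than 7 were lower in adipocyte medium, and in stromal medium 2 rather than 4 were lower and 4 rather than 1 higher.

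Of the receptors, *Nr1h3*, which encodes LXR alpha, was scarce. It measured 91.4, 110.4 and 64.7 normalized counts in unconditioned, 56.8, 73.9 and 51.5 in stromal and 50.3, 16.2 and 18.6 in adipocyte medium. In adipocyte medium it fell by 1.76 on the log2 scale (SE 0.40, limma adjusted p = 9.3e-04, lower in 3 of 3 mice), a call that the rescaling ends (adjusted p = 0.0796). The stromal difference was -0.53 (SE 0.40, adjusted p = 0.283). *Rxra*, the gene of the partner receptor, averaged 1332 ± 229, 832 ± 105 and 556 ± 46.2 in unconditioned, stromal and adipocyte medium (SD, n = 3). It was lower in both conditioned media, at -1.25 in adipocyte (adjusted p = 2.27e-06) and -0.67 in stromal medium (adjusted p = 0.00142), the latter at 0.0583 after rescaling. *Nr1h2*, *Srebf1*, *Srebf2* and *Scd1* were not analysed here. In stromal medium, where the 4 genes were higher, neither measured receptor gene was called higher. A link between receptor gene levels and the 4 genes was not tested.

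Among the other genes on the LXR list, *Arl4c*, a small GTPase gene, had the order of the 4 genes. It measured 2267, 2370.3 and 2638 in unconditioned, 4135, 4632 and 3833 in stromal and 1353, 1178 and 1089 in adipocyte medium. The 3 media did not overlap. In stromal medium it rose by 0.79 on the log2 scale (SE 0.10, adjusted p = 4.27e-05) and in adipocyte medium it fell by 1.01 (SE 0.10, adjusted p = 1.04e-06), in 3 of 3 mice each time. The adipocyte fall is close to that of the median gene, and after rescaling it was -0.08 (adjusted p = 0.519). *Lpl*, which encodes lipoprotein lipase, measured 28.6, 36.5 and 104.6 in unconditioned, 193, 156 and 186 in stromal and 0, 0.90 and 12.7 in adipocyte medium. Its adipocyte difference was -4.05 (SE 0.79, adjusted p = 2.75e-04). Its stromal difference of 1.87 had an adjusted p of 0.059, and of 0.0166 with the mouse as a replicate block, that is, paired by mouse. It also passed without unconditioned mouse 3, at 2.42 (adjusted p = 0.0337). That sample was the highest unconditioned one, and in the planned fit with all samples the stromal difference did not pass.

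Not all genes on the LXR list moved this way. *Smpdl3a*, a phosphodiesterase gene, differed by -1.01 on the log2 scale between stromal and unconditioned medium (SE 0.09, adjusted p = 3.45e-06), from 4889 ± 373 to 2425 ± 276. In adipocyte medium it was at 3689 ± 180, a difference of -0.40 (adjusted p = 0.00112) that turned to 0.52 after rescaling and 0.04 under TMM scaling. *Plin2*, a lipid droplet coat gene, rose in adipocyte medium by 2.36 (SE 0.13, adjusted p = 1.33e-08), from 758 ± 18.9 to 3943 ± 627. In stromal medium it measured 817 ± 103, with a difference of 0.10 (adjusted p = 0.511) that became 0.46 after rescaling (adjusted p = 0.0109). *Elovl6*, a fatty acid elongase gene, rose in adipocyte medium by 1.42 (SE 0.23, adjusted p = 5.23e-05), with values of 1483, 778 and 1691 against 442 to 507 in unconditioned medium. Thus *Plin2* and *Elovl6* were highest in the medium where *Scd2*, *Abca1*, *Abcg1* and *Mylip* were lowest.

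The desaturase and elongase list had 6 of its 37 genes in the table besides *Scd2*. In adipocyte medium 5 were lower and 1 was higher, with a median of -1.02, and in stromal medium 1 was higher, 1 was lower and 4 did not pass the test. The adipocyte median of all genes was -1.03, with 63.4% lower and 33.8% higher, and in stromal medium 21.1% were higher and 36.6% lower. After rescaling 1 rather than 5 was lower in adipocyte medium. *Scd4*, which lies next to *Scd2* on chromosome 19 with *Scd3* and *Scd1* on either side, had the most unequal values. It measured 11.4, 10.4 and 21.3 in unconditioned, 147, 168 and 186 in stromal and 1.44, 0 and 3.91 in adipocyte medium. The stromal rise was 3.51 on the log2 scale (SE 0.54, adjusted p = 1.52e-04) and the adipocyte difference was -2.68 (SE 0.54, adjusted p = 3.9e-04). The adipocyte values lie near 0, so the size of that fall depends on the 1 added before taking logs. The *Scd* genes are close copies: 3.97% of the 50-base stretches of *Scd2* exons also occur in another gene, *Scd3*, *Scd4* and *Scd1* among them, so some *Scd4* reads may stem from *Scd2*. In stromal medium *Scd4* averaged 167 ± 19.4 where *Scd2* averaged 12875 ± 1265, and the part of *Scd2* reads in it was not tested. *Elovl7*, another elongase gene, fell by 1.75 in stromal medium (SE 0.15, adjusted p = 2.22e-06).

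Genes that work with *Mylip* were measured too, 4 of the 14 on their list. *Usp2*, which encodes a deubiquitinase that protects MYLIP, rose in adipocyte medium by 2.26 (SE 0.21, adjusted p = 4.96e-07), from 223 ± 11.3 to 1095 ± 250. *Ube2d3*, a ubiquitin-conjugating enzyme gene, rose there by 0.80 (SE 0.08, adjusted p = 1.29e-06) and differed by 0.00 in stromal medium (adjusted p = 0.991), a value that became 0.36 after rescaling (adjusted p = 0.00993). *Sorl1*, a sorting receptor gene, fell by 1.08 in stromal medium (SE 0.10, adjusted p = 3.71e-06).

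Most measured genes on the cholesterol and SREBP list were lower in both conditioned media at the deposited scaling. Besides genes of synthesis and uptake, this list holds *Nceh1* and *Lipa*, genes that release cholesterol from its esters. Of the 35 genes of cholesterol synthesis and its control, 11 were measured. All 11 were lower in adipocyte medium, with a median of -1.15, and 8 were lower and 1 higher in stromal medium, with a median of -0.81. Over all genes the adipocyte median was -1.03 with 63.4% lower, and the stromal median was -0.17 with 36.6% lower and 21.1% higher. After rescaling 3 rather than 11 were lower in adipocyte medium. *Sqle*, the squalene epoxidase gene, averaged 2547 ± 265 in unconditioned, 1016 ± 109 in stromal and 756 ± 66.0 in adipocyte medium (SD, n = 3). It fell by 1.32 on the log2 scale in stromal (SE 0.11, adjusted p = 2.35e-06) and fell by 1.75 in adipocyte medium (SE 0.11, adjusted p = 3.76e-08). *Hmgcs1*, which makes the precursor of mevalonate, measured 7589, 6477 and 7335 in unconditioned and 4531, 3709 and 3847 in stromal medium, a difference of -0.83 (SE 0.10, adjusted p = 1.92e-05). In adipocyte medium it measured 3534, 3107 and 3555, a difference of -1.07 (adjusted p = 3.84e-07) that was -0.14 after rescaling (adjusted p = 0.23). *Nceh1*, a cholesteryl ester hydrolase gene, was the 1 that was higher in stromal medium, by 0.44 (SE 0.12, adjusted p = 0.00588). In stromal medium *Sqle* and *Hmgcs1* were thus among the 8 lower genes of this list, while 2 did not pass the test. The higher exporter and *Mylip* levels in that medium are what chose those genes, and a link to this list was not tested.

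**Figure D3:**
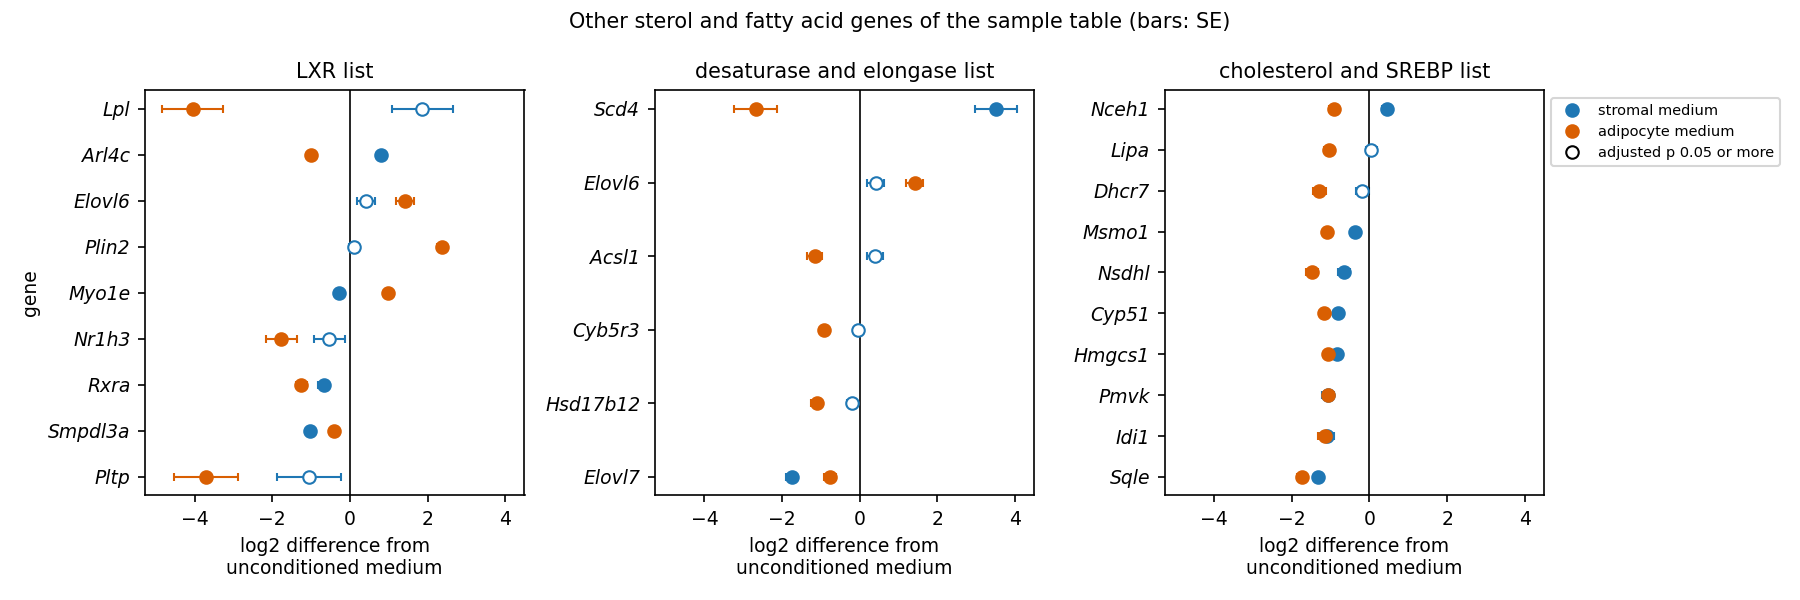
Log2 difference from unconditioned medium (x axis) with its SE for measured genes of 3 lists, in blue for stromal and orange for adipocyte medium, with open symbols where the limma adjusted p is 0.05 or more. *Scd4*, *Lpl* and *Arl4c* lie on opposite sides of 0 in the 2 media, *Sqle* and *Hmgcs1* lie below 0 in both, and the orange points of most cholesterol genes lie near the median of all genes, -1.03, which moves up by 0.93 under the rescaling.

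Genes that make, remove or bind oxysterols, the ligands of LXR, were few: 4 of 22 on the list. *Cyp27a1* was scarce, at 76.0 ± 32.5 in unconditioned, 24.5 ± 11.4 in stromal and 13.1 ± 5.91 in adipocyte medium. It was lower in both conditioned media, by -1.57 in stromal (SE 0.49, limma adjusted p = 0.0161) and -2.45 in adipocyte medium (SE 0.49, adjusted p = 3.55e-04). *Sult2b1*, a sulfotransferase gene whose product inactivates oxysterols, rose in both media. It averaged 353 ± 6.88 in unconditioned, 632 ± 173 in stromal and 1556 ± 250 in adipocyte medium, differences of 0.80 (SE 0.18, adjusted p = 0.00264) and 2.12 (SE 0.18, adjusted p = 2.65e-07). *Osbpl5*, an oxysterol-binding protein gene, fell by 1.08 in adipocyte medium (adjusted p = 4.09e-06), and was at -0.15 after rescaling (adjusted p = 0.274). *Cyp11a1*, which opens the steroid hormone pathway, fell by 1.41 there (SE 0.30, adjusted p = 5.15e-04), and was at -0.50 after rescaling (adjusted p = 0.144).

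Other ATP-binding cassette transporters formed a list of 50 genes, of which 10 were measured, with 8 lower and 2 higher in adipocyte medium (median -0.99) and 5 lower, 1 higher and 4 not past the test in stromal medium (median -0.41). Among all genes 63.4% were lower and 33.8% higher in adipocyte medium (median -1.03), and 36.6% were lower and 21.1% higher in stromal medium (median -0.17). After rescaling 2 rather than 8 were lower in adipocyte medium, and 2 were lower and 3 higher in stromal medium. *Abcb1a*, a drug efflux pump gene, was highest in adipocyte medium, at 14075 ± 485 against 5468 ± 769 in unconditioned medium, a rise of 1.37 (SE 0.11, adjusted p = 1.79e-07). Its near copy *Abcb1b* rose there by 1.71 (SE 0.15, adjusted p = 2.84e-07), and reads may be split between the 2.

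The contrast of the 2 conditioned media showed the same genes from another side. *Abca1* differed by -2.73 ± 0.18, *Abcg1* by -2.62 ± 0.20 and *Mylip* by -2.35 ± 0.15 on the log2 scale between adipocyte and stromal medium (SD, n = 3 mice). These 3 values were close to each other, and *Scd2* stood apart at -5.65 ± 0.63. In this comparison 57.2% of all genes were called lower and 33.8% higher. *Scd4* differed by -6.19 (adjusted p = 5.18e-07), *Lpl* by -5.91 (adjusted p = 1.56e-05) and *Arl4c* by -1.80 (adjusted p = 3.76e-08), in 3 of 3 mice each. The adipocyte values of *Scd4* and *Lpl* were near 0, so the size of these 2 differences is uncertain. *Usp2* was higher in adipocyte than in stromal medium by 2.95 (SE 0.21, adjusted p = 1.4e-07).

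Macrophages are known for *Abca1* and *Abcg1* expression, and markers of macrophages and other spleen cells were in the table. In bulk RNA, fewer cells of a type and less RNA per cell cannot be told apart. Of 28 macrophage and monocyte markers 7 are in the table, among them *Csf1r*, *Adgre1* and *Lyz2*. Their sum was 3702 to 7394 in unconditioned, 3587 to 8730.4 in stromal and 554 to 935 in adipocyte medium, and 6 of 7 were lower in adipocyte and 1 higher and 2 lower in stromal than in unconditioned medium. The 7 of 20 B cell markers summed to 2239 to 2968, 1742 to 3158 and 557 to 624, with 7 of 7 lower in adipocyte medium and overlapping sums in stromal and unconditioned medium. The 7 of 15 neutrophil markers summed to 1903 to 2794, 1861 to 3315 and 311 to 1027, with 6 lower and 1 higher in adipocyte medium and 2 lower in stromal medium. Dendritic cell markers, 8 of 14, summed to 5313 to 5696, 6946 to 8054 and 4016 to 4700, with 6 lower and 2 higher in adipocyte medium and 2 higher and 2 lower in stromal medium. The 4 of 13 natural killer cell markers summed to 13469 to 15259, 7620 to 8830 and 6850 to 8107, with 3 lower in adipocyte and 2 lower in stromal medium. Of 14 erythroid and platelet markers *Car1* alone is in the table, at 259 to 430, 539 to 1776 and 74.8 to 146, and of 12 adipocyte markers *Lpl* alone. Of 12 stromal cell markers 0 are in it. No marker was at 0 in all samples of a medium. Of all genes in the table, 63.4% were called lower and 33.8% higher in adipocyte medium, and 36.6% lower and 21.1% higher in stromal medium, so lower markers are common to the whole table. T cell markers, 6 of 20 with *Cd3e* and *Cd3g*, summed to 115525 to 128248, 99169 to 102444 and 49529 to 50919, with 6 of 6 lower in adipocyte medium and 3 lower and 1 higher in stromal medium. In adipocyte medium the lower values of the 4 genes thus came with a lower sum of each of these lists than in unconditioned medium, and the part of other cells in them was not tested. In unconditioned medium all 4 genes were highest in mouse 1, which had the lowest macrophage sum. Mouse 1 had the lowest macrophage sum in adipocyte medium too. There *Scd2* and *Abca1* were highest in mouse 1, and *Abcg1* and *Mylip* in mouse 2. In stromal medium mouse 3 had the highest macrophage sum. *Scd2*, *Abca1* and *Abcg1* were highest in that mouse, and *Mylip* was highest in mouse 2. These orders of 3 mice are given as a description.

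**Figure D4:**
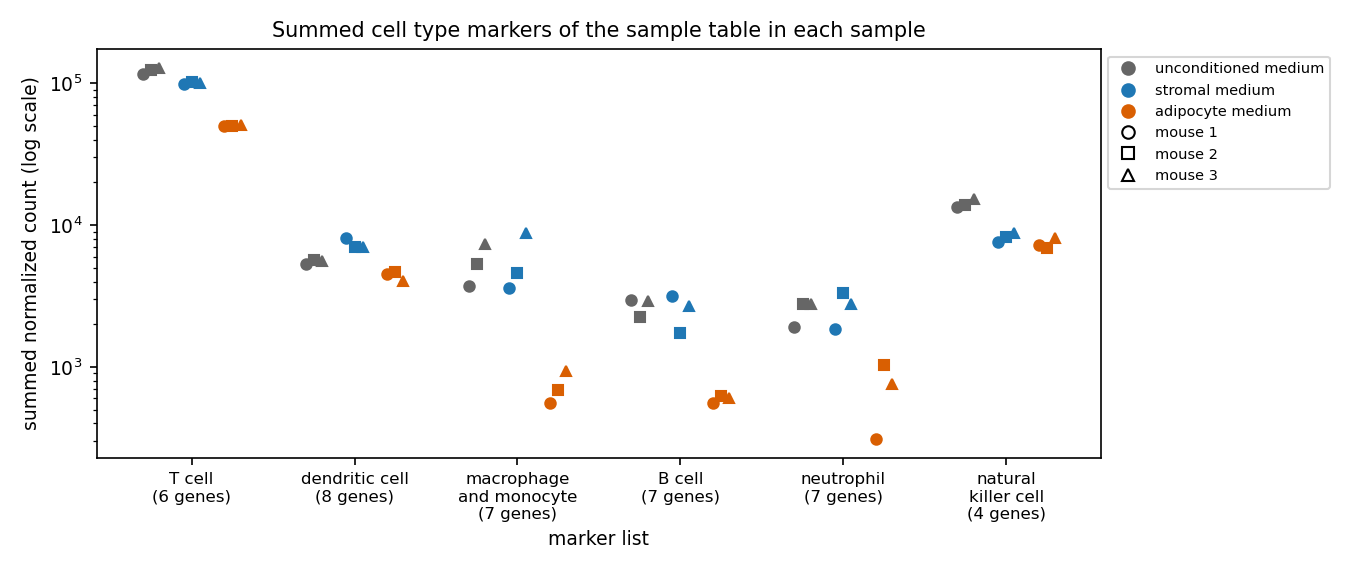
Summed normalized counts on a log axis for 6 lists of cell type markers, with 1 symbol per mouse and 1 colour per medium. The macrophage, B cell and neutrophil sums in stromal medium overlap those in unconditioned medium, and in adipocyte medium the T cell, macrophage, B cell, neutrophil and dendritic cell sums lie below both, the macrophage one at 554 to 935.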

How the data were processed

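RNA was sequenced from 9 samples, 3 per medium, each medium holding the same 3 mice per the labels. Per the labels' protocols, cDNA was made with SMART-seq v4 and libraries with Nextera XT, which keeps no strand. Per the submitters' processing notes FastQC, Trimmomatic, featureCounts and DESeq2 were used, with the builds GRCm39, GRCh38 and hg38. Aligner, annotation and versions were not given in the sources used here. A normalized signal per gene was deposited by the authors, read counts divided by a size factor: 100% of values were whole multiples of the sample's step within 0.001 reads. The listed genes, 2889, all come from the 3495 genes in the authors' tables of changed genes. Per the file headers, those tables hold a Wald score, a p-value and a log2 fold change with its error. The Wald score fits a test beyond 1.5-fold.

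Values were analysed as log2(value + 1), which understates changes of low genes, with limma-trend (limma 3.58.1, R 4.3.3; edgeR 4.0.16 and Python 3.11.15 otherwise). All 9 samples entered 1 fit with the medium as factor, over the 2868 genes whose mean was 1 or more. P-values were two-sided, adjusted by Benjamini and Hochberg's method, and called under 0.05. All 4 genes passed that filter. The plan allowed a count test if the table held raw counts. It does not, so edgeR on the recovered reads was an alternative. Exact permutation of 3 against 3 samples gives at best 0.1, and was not used. The fits were tested on simulated data. The 4 genes and the lists were chosen with earlier results of these data known. Named genes were, per list, up to 8 with the smallest adjusted p, and some sterol genes named in advance. The 5 most like each of the 4 were also named, but their differences were not among those recomputed below. Same-numbered samples come from 1 mouse per the labels, and their deviations correlated at -0.12 to 0.26. Exon lengths are from GENCODE M21. Promoters were matched by symbol in a RefSeq table: *Abca1* and *Mylip*, 2 of the 4 genes, have an entry. Some genes counted in the lists are not reported here by name or value.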

Additional observations from a re-analysis of the deposited data

How the results depend on the processing

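The 12 log2 differences of *Scd2*, *Abca1*, *Abcg1* and *Mylip* kept their direction in all 252 recomputations, and 233 moved by less than the SD over mice. The other 19 came from the 2 scalings built on the listed genes. In adipocyte against unconditioned medium the median of ratios gave *Scd2* -2.69, *Abca1* -0.9998, *Abcg1* -0.61 and *Mylip* -0.85, and TMM gave -3.12, -1.49, -1.08 and -1.32. In stromal medium the median of ratios gave *Scd2* 2.39, *Abcg1* 1.44 and *Mylip* 0.94, and TMM gave *Abcg1* 1.22 and *Mylip* 0.72. Between adipocyte and stromal medium *Abca1*, *Abcg1* and *Mylip* were at -2.16, -2.05 and -1.79, and under TMM at -2.43, -2.31 and -2.04. Leaving out samples or mice gave *Scd2* -3.94 to -3.32 in adipocyte and 1.92 to 2.13 in stromal medium, and *Abca1* -2.03 to -1.77 and 0.60 to 0.96.

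The split of higher and lower genes changed with the median of ratios. There 1047 rather than 1818 genes were lower and 1078 rather than 969 higher in adipocyte medium, 1129 rather than 606 higher and 561 rather than 1049 lower in stromal medium, and 1091 rather than 1641 lower in adipocyte than in stromal medium. Leaving out samples or mice gave totals of 2765 to 2800 genes in adipocyte and 1335 to 1772 in stromal against unconditioned medium, and 2450 to 2599 between the conditioned media. Paired by mouse (a replicate block), 2788, 1665 and 2619 genes passed in the 3 comparisons, against 2787, 1655 and 2609 without the block, and among the named genes the block changed 2 calls, *Lpl* and *Abcb1b* in stromal medium (adjusted p = 0.0404 for the latter). edgeR on the recovered reads called 2784, 1685 and 2611 genes at the deposited scaling and 2759, 1631 and 2474 with TMM. Its TMM split in stromal medium was 805 higher and 826 lower.

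Of 2268 recomputed differences of the other named genes 16 reversed, 64 lost and 30 gained a call. With the median of ratios the adipocyte differences of *Abcd4* (0.0194), *Abcf3* (0.0933), *Cyb5r3* (0.0012), *Elovl7* (0.16), *Nceh1* (0.0022), *Smpdl3a* (0.52, and 0.0436 under TMM) and *Sorl1* (0.38) turned positive, as did the stromal ones of *Cyb5r3* (0.32) and *Myo1e* (0.0736). Between adipocyte and stromal medium *Abcb8* (0.0785), *Abcd4* (0.0407), *Cyp51* (0.21), *Hmgcs1* (0.33, and 0.0611 under TMM) and *Sqle* (0.15) did. The causes were not tested beyond the shift of all genes by the scaling. Genes outside the table were not analysed here, so no scaling over all genes could be tried.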

Other observations

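Of the 139 genes with all adipocyte samples below and all stromal samples above the unconditioned ones, *Scd4*, *Lpl* and *Scd2* had the lowest differences between adipocyte and stromal medium, followed by *Klrb1f* and *Phlda3*. These names were chosen after their values were seen, and their order of media is what chose them. *Klrb1f*, a C-type lectin receptor gene, averaged 120 ± 18.3 normalized counts in unconditioned, 1409 ± 575 in stromal and 43.1 ± 15.6 in adipocyte medium (SD, n = 3). *Phlda3*, a target of p53, averaged 118 ± 33.4, 555 ± 226 and 31.0 ± 9.96 in the same order. *Gtse1*, a cell cycle gene, averaged 483 ± 45.9, 1561 ± 517 and 183 ± 33.8. *Ly6c1*, a surface protein gene, averaged 3555 ± 169, 6457 ± 2144 and 760.3 ± 230. Among the 139 genes *Abca1* had the 22nd lowest difference between adipocyte and stromal medium.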
